A study of Mus musculus with 6 samples.

Results

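The genes described are 9 genes of the antigen receptor and of early B-lineage development, Ighm, Cd79a, Cd79b, Vpreb1, Igll1, Rag1, Rag2, Dntt and Blnk. They were chosen by name and looked up by their mouse Ensembl gene identifiers among the 38293 genes with deposited read counts, and each of the 9 was found. RNA was sequenced from fetal liver (FL) cells of single C57BL/6 embryos at embryonic day 14.5, in 3 wt and 3 hnRNP L deficient libraries. The wt embryos are labelled as wild-type for hnRNP L, an RNA-binding protein that acts in splicing. The hnRNP L deficient embryos are labelled as knockout and, by the methods of the study, carried VavCre together with the floxed hnRNP L alleles (VavCre+ hnRNP L fl/fl). The Vav promoter drives Cre in blood cells, and what remains undeleted in a sorted cell fraction is still counted. The sorted cells were Lin- cKit+, a fraction rich in stem and progenitor cells. The lineage cocktail used for FL included an antibody to B220, which removes B cell precursors that display B220. One label field gives the tissue as whole embryo, whereas the source name gives fetal liver cells.

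B cells are built around the B cell receptor, an immunoglobulin whose heavy chain of the mu class is encoded by Ighm. Its gene segments are cut and joined by the recombinase RAG1 and RAG2, and the terminal transferase encoded by Dntt adds nucleotides at the joints, an enzyme known to be scarce in fetal lymphocytes. In a precursor B cell the heavy chain is first shown on the surface with the surrogate light chain, made of the products of Vpreb1 and Igll1, and signals through Igα and Igβ, encoded by Cd79a and Cd79b, to the adaptor protein encoded by Blnk. Several of these genes are also known to be transcribed at low levels in early lymphoid progenitors and in plasmacytoid dendritic cells.

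Promoters are shown for Rag1, Rag2 and Blnk, since these genes were called lower in hnRNP L deficient cells and have an entry in the RefSeq promoter table (build GRCm38.p6), which covers 250 bases before and 50 after the gene start. The sequences run 5′ to 3′ on the strand of the gene. Capitals mark matches, on either strand, to the core of the Ikaros motif (TGGGAA), the PU.1 core (GAGGAA), the octamer (ATGCAAAT) and the EBF core (CCCNNGGG). E boxes (CANNTG) were searched too but are left in lower case, since 72.3% of the 32851 promoters hold one.
Rag1, chr2:101649483-101649782, minus strand: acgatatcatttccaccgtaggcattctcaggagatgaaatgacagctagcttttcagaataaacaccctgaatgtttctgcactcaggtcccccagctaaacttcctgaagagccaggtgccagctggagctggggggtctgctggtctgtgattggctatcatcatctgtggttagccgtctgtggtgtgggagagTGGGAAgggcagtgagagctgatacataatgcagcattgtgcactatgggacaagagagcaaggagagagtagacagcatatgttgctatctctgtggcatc
Rag2, chr2:101624462-101624761, plus strand: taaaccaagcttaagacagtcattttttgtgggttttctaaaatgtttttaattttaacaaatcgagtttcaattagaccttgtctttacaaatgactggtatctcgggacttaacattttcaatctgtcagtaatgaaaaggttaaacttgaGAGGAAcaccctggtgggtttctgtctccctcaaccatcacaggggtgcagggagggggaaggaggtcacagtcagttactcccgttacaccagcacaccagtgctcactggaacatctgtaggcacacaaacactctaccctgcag
Blnk, chr19:40994172-40994471, minus strand: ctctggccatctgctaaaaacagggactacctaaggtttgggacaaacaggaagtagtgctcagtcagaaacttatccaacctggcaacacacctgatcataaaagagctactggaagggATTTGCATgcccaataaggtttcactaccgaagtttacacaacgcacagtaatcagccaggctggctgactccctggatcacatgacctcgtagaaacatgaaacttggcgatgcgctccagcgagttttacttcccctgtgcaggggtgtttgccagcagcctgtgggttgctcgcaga
The Rag1 promoter held the Ikaros core 52 bases before the start, found in 25.6% of all promoters. The Rag2 promoter held the PU.1 core 97 bases before the start, found in 28.3% of all promoters. The Blnk promoter held the octamer, on the other strand, 130 bases before the start, and 1.74% of all promoters hold one. Among the 7 of 9 genes with an entry, the EBF core was found in 1, Igll1, against 13.7% of all promoters, and an E box in 7. Such a match is a description of these letters and not evidence of binding. Ighm and Cd79b have no entry.

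Hnrnpl itself was read first. It had 30665, 31858 and 38335 reads in wt replicates 1 to 3 and 15587, 18841 and 20119 reads in hnRNP L deficient replicates 1 to 3. Every deficient library lay below every wt library, with 537 ± 13.2 CPM (counts scaled to the normalized library size, SD, n = 3) in wt and 267 ± 23.2 CPM (n = 3) in deficient cells. Kit, which the sort selects for on the surface, was detected in every library but was not level between the groups. It had 341 ± 23.2 CPM (n = 3) in deficient cells and 522 ± 120 CPM (n = 3) in wt cells, without overlap. This drop of Kit passed the threshold of 0.05 (edgeR adjusted p = 0.0402). Cd34, by which the study defines some progenitors, had 32.5 ± 3.54 CPM in deficient and 151 ± 73.4 CPM in wt libraries. Its groups did not overlap either, at -2.21 on the log2 scale (edgeR adjusted p = 0.0171). Whether the make-up of the sorted fraction differed between the groups was not tested. Depth ran from 55952160 to 76157226 reads on genes, so that 3 reads in a library correspond to at most 0.0540 CPM. In bulk RNA a lower value can come from fewer cells of a type or from less RNA per cell, and these cannot be told apart. Wt replicate 2 stood apart from the other wt libraries. The 9 genes together had 47.6 CPM in it, against 10.03 and 17.1 CPM in wt replicates 1 and 3 and 2.17 to 3.87 CPM in the deficient libraries.

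Reads on the antigen receptor and early B-lineage genes were fewer in hnRNP L deficient cells, with 140 to 253 reads a library against 557 to 2857 in wt. Of the 9 genes, 8 had any read and 7 passed the filter on low counts (about 10 reads in at least 3 libraries). Tested by edgeR's quasi-likelihood test with Benjamini-Hochberg adjustment over all genes, Ighm, Rag1, Rag2 and Blnk were called lower at an adjusted p under 0.05, and none was called higher. Over all 14396 genes tested, 9.85% were called lower and 9.32% higher. In 6 of the 9 genes every deficient library lay below every wt library, and 22.7% of all genes tested showed this. Ighm, Rag1, Rag2, Vpreb1, Cd79b and Blnk reached the filter in 3 of 3 wt libraries, whereas Blnk reached it in no deficient library and Rag1, Rag2, Vpreb1 and Cd79a in 1 each. A gene that passes through the wt group alone is bound to differ, so these counts describe the genes and are no separate support. The median log2 fold change of the 7 tested genes was -2.45, beside -0.03 for all genes tested. Such a median was not limited to these genes, since it was -2.49 for the tested neutrophil and monocyte precursor markers and -1.95 for the macrophage markers.

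**Figure D1:**
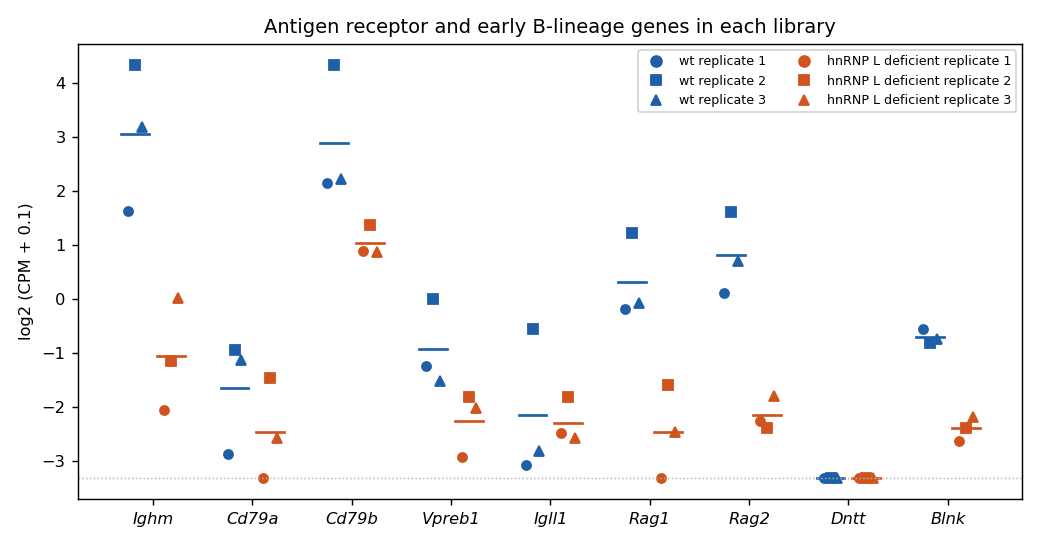
Level of each of the 9 genes as log2 of CPM plus 0.1 (vertical axis) in each of the 6 libraries. Points are libraries, horizontal bars are group means of the plotted values, and the dotted line marks 0 reads. Dntt sits on that line in all 6 libraries, wt replicate 2 is highest in 7 of the 8 genes with reads, and the groups overlap for Cd79a and Igll1.

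Ighm, the heavy chain of the mu class (chromosome 12, 113418558 to 113422730, minus strand, GRCm38), showed the largest change of the 7. It had 167, 1208 and 657 reads in wt replicates 1 to 3 and 9, 23 and 68 reads in deficient replicates 1 to 3. The groups did not overlap, and the deficient libraries held from 0.1398 to 0.911 CPM against 3.01 to 20.1 CPM in wt. The log2 fold change was -4.50 (SE 0.97, edgeR adjusted p = 0.0305), and -3.67 without wt replicate 2 (adjusted p = 0.0199). Reads on Ighm do not separate transcripts of a rearranged heavy chain from germline transcripts of the constant region.

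Cd79a and Cd79b encode Igα and Igβ, the signalling chains of the receptor. Cd79b, on chromosome 11 (106311341 to 106314762), was the most read of the pair, with 240, 1197 and 331 reads in wt and 113, 162 and 129 reads in deficient replicates 1 to 3. All deficient libraries lay below all wt libraries, at 1.73 to 2.48 CPM against 4.32 to 19.96 CPM, but the difference of -2.27 on the log2 scale (SE 0.65) missed the threshold (edgeR adjusted p = 0.0556). Without wt replicate 2 the change was smaller, at -1.16, and passed (adjusted p = 0.0152). Cd79a, on chromosome 7 (24897381 to 24902197), had 2, 25 and 26 reads in wt and 0, 17 and 5 reads in deficient libraries. Its groups overlapped, since wt replicate 1 lay below deficient replicate 2, and its log2 fold change of -1.31 (SE 1.17) was not called (edgeR adjusted p = 0.444). Cd79a shared 117 of its 1408 windows of 50 bases with Gm32220, and reads that did not align uniquely were not counted.

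The surrogate light chain was barely detected. Vpreb1 (chromosome 16, 16868403 to 16870843) had 18, 54 and 18 reads in wt and 2, 12 and 11 reads in deficient replicates 1 to 3. The deficient libraries held 0.0311 to 0.184 CPM and the wt libraries 0.248 to 0.9005 CPM, and the log2 fold change of -2.00 (SE 0.76) did not pass (edgeR adjusted p = 0.102). It shared 233 of its 1238 windows with its near copy Vpreb2, which had 5 reads, all of them in wt replicate 2. Since reads that map to several places were not counted, both genes may be undercounted. Igll1, which encodes lambda 5 (chromosome 16, 16860671 to 16863985), had 1, 35 and 3 reads in wt and 5, 12 and 5 reads in deficient libraries. Of its wt level, 90.8% came from wt replicate 2, and the gene did not pass the filter. Without wt replicate 2 the wt reads would be 1 and 3, below all 3 deficient libraries.

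Both recombinase genes fell. Rag1 and Rag2 lie side by side on chromosome 2 and are transcribed towards each other, Rag1 at 101638282 to 101649501 and Rag2 at 101624718 to 101632529. Rag1 had 43, 133 and 62 reads in wt and 0, 15 and 6 reads in deficient libraries, a log2 fold change of -3.61 (SE 0.97, edgeR adjusted p = 0.0432). Rag2 had 54, 177 and 111 reads in wt and 7, 6 and 14 reads in deficient libraries, a log2 fold change of -3.78 (SE 0.55, edgeR adjusted p = 0.0138). For both genes the groups did not overlap. Mean levels in deficient cells were 8.06% of those in wt for Rag1 and 7.12% for Rag2. Without wt replicate 2 the log2 fold change was -2.96 for Rag1, which then missed the threshold (adjusted p = 0.0562), and -3.24 for Rag2 (adjusted p = 0.00674). Both genes overlap B230118H07Rik, with 33 of 6559 windows of Rag1 and 161 of 3422 of Rag2 shared. Its level differed by -0.29 on the log2 scale (edgeR adjusted p = 0.195).

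Dntt, which encodes terminal transferase (chromosome 19, 41029275 to 41059525), had 0 reads in all 6 libraries, among 392845253 reads on genes. A count of 0 allows up to 0.00764 CPM over the 6 libraries together, with counting error as the only error covered. No comparison between the groups could be made for it at this depth.

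Blnk, the adaptor downstream of the receptor (chromosome 19, 40928927 to 40994535), had 32, 28 and 36 reads in wt and 4, 6 and 9 reads in deficient libraries. It was the steadiest of the genes in wt, with 0.513 ± 0.0566 CPM (SD, n = 3), against 0.0915 ± 0.0292 CPM (n = 3) in deficient cells. The groups did not overlap, and the log2 fold change was -2.45 (SE 0.43, edgeR adjusted p = 0.0173). Blnk was the only one of the 8 genes with reads that was not highest in wt replicate 2, and its change without that library was -2.51 (adjusted p = 0.0175).

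**Figure D2:**
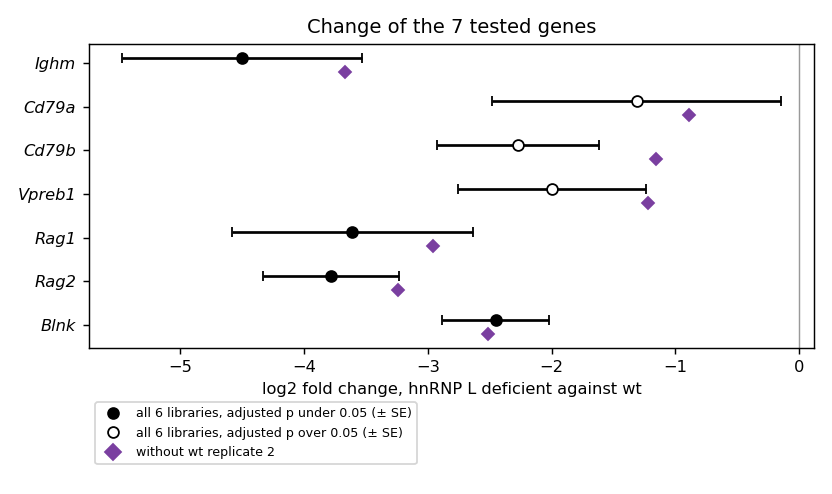
Log2 fold change of hnRNP L deficient against wt cells (horizontal axis) for the 7 genes tested. Circles are the fit to all 6 libraries with the standard error as bars, filled where the adjusted p was under 0.05, and diamonds are the fit without wt replicate 2. Each of the 7 genes lies below 0 in both fits, and leaving out wt replicate 2 moves all but Blnk towards 0.

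The 4 calls did not hold when any one of certain libraries was left out. Without wt replicate 3 or without any one of the 3 deficient libraries 0 of the 9 genes were called, with adjusted p from 0.0656 to 0.124 for Ighm, 0.0809 to 0.173 for Rag1, 0.0530 to 0.0918 for Rag2 and 0.0544 to 0.0943 for Blnk. Over all genes these 4 fits called 0 to 2 genes lower. The direction was kept in all 6 fits, with log2 fold changes from -5.43 to -3.67 for Ighm, -4.86 to -2.96 for Rag1, -4.15 to -3.24 for Rag2 and -2.70 to -2.24 for Blnk.

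Levels between genes were compared per kilobase of exon. In wt cells Cd79b had the highest mean level at 6.72 CPM per kilobase, followed by Ighm at 5.69, and these overlapped across embryos. Rag2 followed at 0.531 CPM per kilobase and lay below Ighm in every pairing of wt libraries. From Rag2 down through Vpreb1 at 0.409, Rag1 at 0.194, Cd79a at 0.185, Igll1 at 0.0990 and Blnk at 0.0856 CPM per kilobase, each gene overlapped with the next. In deficient cells Cd79b stayed highest at 1.39 CPM per kilobase and Ighm was at 0.248.

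Reads on the receptor segments were looked at next, since a rearranged receptor joins a variable segment to the constant region. Of 480 immunoglobulin and T cell receptor segments in the annotation, 40 had any read and 7 passed the filter, of which Ighm alone was called. Ighm took 2032 of 2081 reads on immunoglobulin segments (97.6%) in wt and 100 of 143 (69.9%) in deficient cells. The 106 heavy chain variable segments had 2, 13 and 5 reads in wt and 0, 0 and 1 reads in deficient replicates 1 to 3, and the diversity and joining segments of the heavy chain had none. Few reads are expected on each, since segments are short and rearranged and reads not aligned uniquely were left out. These counts therefore do not show whether the Ighm transcripts were rearranged. The kappa constant region gene Igkc, given after its values were seen, had 3, 9 and 12 reads in wt and 6, 10 and 23 reads in deficient libraries, with overlapping groups and a log2 fold change of 0.57 (SE 0.66, edgeR adjusted p = 0.559).

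Tcrg-C1, the constant region gene with the second most reads of all segments, had 53, 0 and 7 reads in wt and 359, 403 and 457 reads in deficient replicates 1 to 3. Every deficient library lay above every wt library, at 5.96 ± 0.329 CPM (SD, n = 3) against 0.350 ± 0.525 CPM (n = 3), 17.0-fold by group means. Its log2 fold change of 4.11 (SE 1.24) missed the threshold (edgeR adjusted p = 0.0674), and the result rested on single libraries. Without wt replicate 1 the log2 fold change was 6.80 (adjusted p = 0.00652) and without wt replicate 2 it was 3.55 (adjusted p = 0.0227), whereas without wt replicate 3 or any one deficient library the adjusted p was 0.132 to 0.192. The 7 gamma variable segments had 0 reads in wt and 3, 0 and 2 reads in deficient libraries. Tcrg-C1 shared 34.2% of its 50-base windows with other genes, mostly Tcrg-C3, and reads on those were not counted. Among the other segments with the most reads, Trbv13-2 had 48, 68 and 96 reads in wt and 55, 39 and 44 reads in deficient libraries (log2 fold change -0.70, edgeR adjusted p = 0.155). B230359F08Rik, annotated as a variable segment, had 22, 49 and 57 against 53, 53 and 95 reads (edgeR adjusted p = 0.350). Trbc2 had 4, 59 and 24 against 8, 7 and 8 reads and did not pass the filter. Trbc1, given after its values were seen, had 20, 17 and 16 reads in wt and 3, 0 and 6 in deficient libraries, without overlap (log2 fold change -2.67, SE 0.82, edgeR adjusted p = 0.0599).

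**Figure D3:**
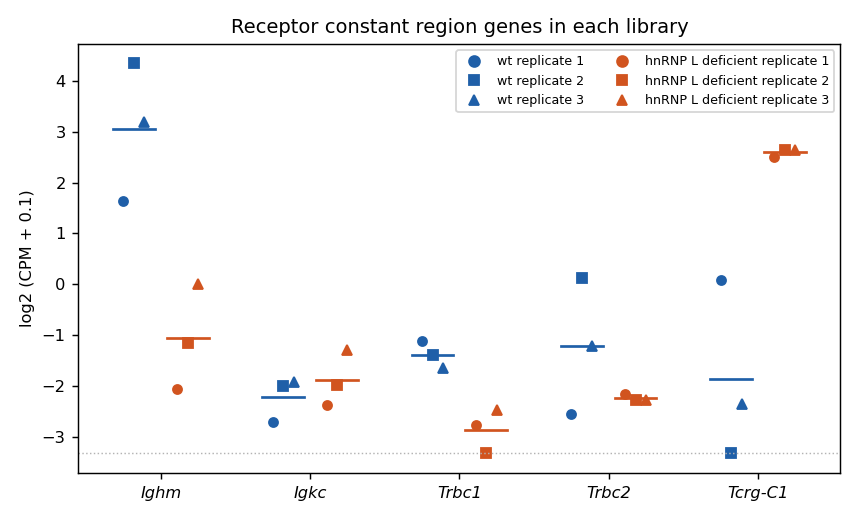
Level of 5 receptor constant region genes as log2 of CPM plus 0.1 (vertical axis) in each library, with bars for group means of the plotted values and a dotted line at 0 reads. The deficient libraries lie below the wt libraries for Ighm and Trbc1 and above them for Tcrg-C1, and the groups overlap for Igkc and Trbc2.

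Counts on exon bins were used to see where along the genes the reads lay. These were analysed in 3 wt libraries and in deficient replicates 2 and 3, and a read that spans several bins counts on each of them. Ighm had reads on all 6 of its bins in each wt library and in deficient replicate 3, and on 4 bins in deficient replicate 2. The first 2 bins took 12.2%, 9.32% and 10.7% of its bin reads in wt replicates 1 to 3, 10.6% in deficient replicate 3 and none of 36 in deficient replicate 2. Blnk reads were concentrated on different stretches in the 3 wt embryos. In wt replicate 1, 56 of 80 bin reads were on bins 7 to 12, whereas wt replicate 3 had 83 of 92 on bins 1 to 6 and none on bins 7 to 12, and wt replicate 2 had 25 of 52 on bins 1 to 6 and 23 on bins 13 to 20. Of the Rag2 reads in the deficient libraries, all 6 and all 14 fell on 1 of the 5 bins, the one that held most of the wt reads. Relative use of a bin could be tested for 13 bins, 6 of Ighm and 7 of Cd79b, with diffSpliceDGE of edgeR. None was called, beside 0.0288% of the 176996 bins tested over all genes, none had an unadjusted p under 0.05, and the smallest unadjusted p was 0.614. The bins of Rag1 are merged with those of B230118H07Rik and were not tested as Rag1.

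**Figure D4:**
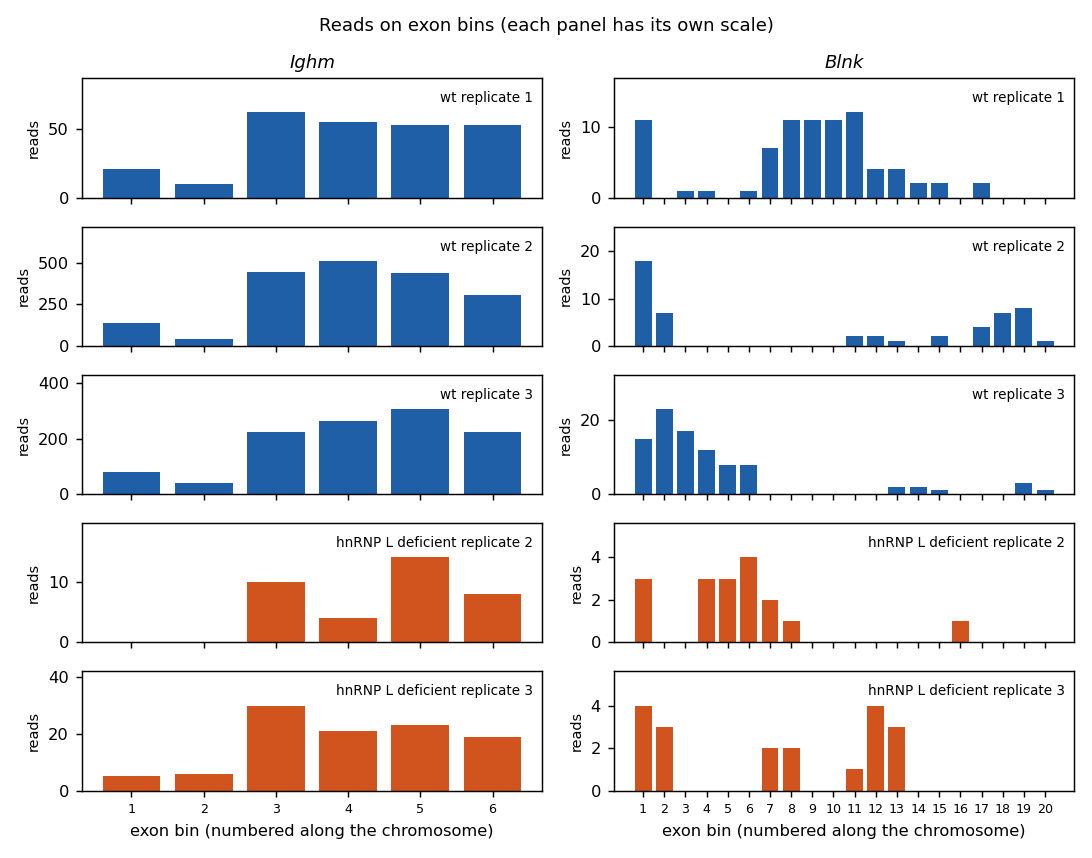
Reads (vertical axis, own scale in each panel) on each exon bin of Ighm and Blnk (horizontal axis, bins numbered along the chromosome) in the 5 libraries with bin counts. Ighm is covered on every bin in 4 of the 5 libraries, whereas the Blnk reads crowd on different bins from one wt library to the next.

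Of 24 genes of pre-BCR and BCR signalling, 16 were tested, 1 was called lower and 1 higher, with a median log2 fold change of -0.85. Over all 14396 genes tested, 9.85% were called lower and 9.32% higher, shares to set beside each list that follows. Of the 16 genes, 12 had an unadjusted p under 0.05, but the share of all genes with such a p was not counted. Inpp5d, which encodes the inhibitory phosphatase SHIP1, fell from 6684, 8664 and 9960 reads in wt to 5969, 5771 and 6518 reads in deficient libraries (log2 fold change -0.58, SE 0.09, edgeR adjusted p = 0.0141). Cd81, a tetraspanin of the B cell co-receptor, rose (log2 fold change 0.33, SE 0.07, adjusted p = 0.0276). Of the genes with the most reads that did not pass, the kinase gene Btk differed by 0.14, the adaptor gene Dapp1 by -0.41 and the phosphatase gene Ptpn6 by -0.93 on the log2 scale. This list is sensitive to the test, since DESeq2 called 8 and limma-voom 7 of its genes lower.

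The genes of V(D)J recombination and of the repair that completes it gave no call, at wt means from 5.42 CPM for Nhej1 to 488 CPM for Hmgb2. All 15 genes of the list were tested by edgeR, 0 were called in either direction, and the median log2 fold change was 0.02. An unadjusted p under 0.05 was found for 4 of them, again without a share of all genes to set beside it. DESeq2 called 1 and limma-voom 2 of them lower. Hmgb1 and Hmgb2, DNA-bending cofactors of the recombinase, differed by -0.10 and -0.33, and Msh6 by 0.03 on the log2 scale. The extremes of the list, named after their values were seen, were Nhej1 at -0.46 and Lig4 at 0.66 (SE 0.21, edgeR adjusted p = 0.0652).

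Of 22 genes of lymphoid specification, 16 were tested, 6 were called lower and none higher, with a median of -0.73. Without wt replicate 3 or any one deficient library 0 of them were called lower. Il7r, the receptor for the lymphoid cytokine IL-7, had 11, 205 and 62 reads in wt and 4, 2 and 6 in deficient libraries (log2 fold change -4.63, SE 1.11, edgeR adjusted p = 0.0329), and its log2 fold change was -3.15 without wt replicate 2 (adjusted p = 0.0282). Flt3, the receptor of multipotent and lymphoid progenitors, had 988, 2637 and 2052 against 184, 222 and 191 reads (log2 fold change -3.35, SE 0.34, adjusted p = 0.00985). The log2 fold change was -1.41 for Sox4, -2.58 for Id3, -3.02 for Irf8 and -0.33 for Tcf4, all called. Ikzf1, Myb and Tcf3, with the most reads of those not called, differed by -0.18, -0.17 and 0.08. The B-lineage factor Ebf1 and the coactivator Pou2af1, named after their values were seen, had 4, 26 and 5 and 2, 29 and 5 reads in wt and 0 in each deficient library. Against a floor of 3 reads over the deficient group, they were at least 12.7-fold and 13.03-fold lower, and at least 4.78-fold and 3.72-fold lower when wt replicate 2 was left out. These bounds allow for counting error in the deficient group only, and not for the spread between embryos. Pax5, also named after its values were seen, had 0, 10 and 11 against 0, 0 and 1 reads.

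**Figure D5:**
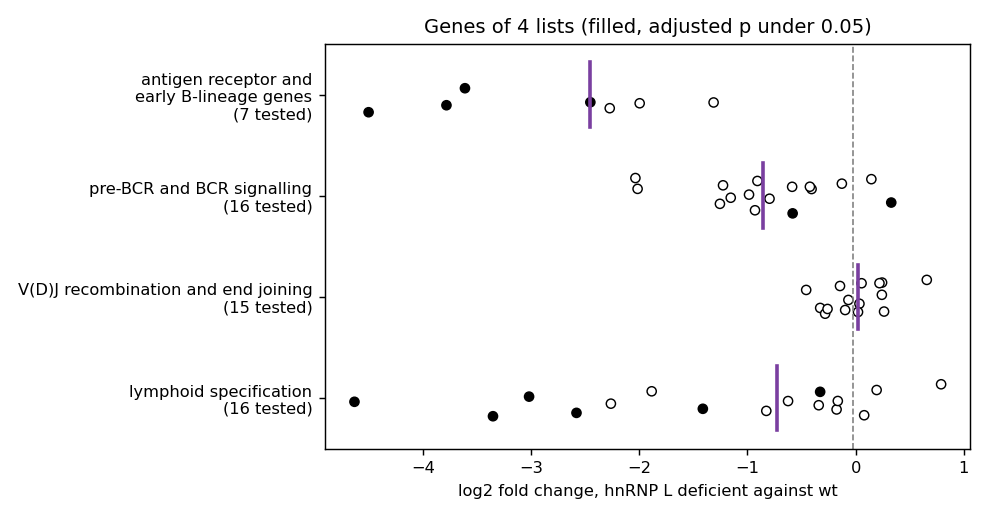
Log2 fold change of hnRNP L deficient against wt cells (horizontal axis) for the tested genes of 4 lists. Each point is a gene, filled where the adjusted p was under 0.05, thick bars are list medians and the dashed line is the median of all 14396 genes tested. The antigen receptor and early B-lineage genes have the lowest median, and the 15 recombination and end joining genes lie between -0.46 and 0.66.

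Of the marker lists of other cells, those of plasmacytoid dendritic cells, mature B cells, macrophages, hepatocytes and endothelial cells had a lower summed level in every deficient library than in every wt library. The summed level of 8 plasmacytoid dendritic cell markers was 92.8 to 135 CPM in wt and 70.2 to 75.4 CPM in deficient libraries. Of the 5 tested, Ccr9, Irf8 and Tcf4 were called lower, Ccr9 with 27, 152 and 77 reads in wt and 1, 0 and 0 in deficient libraries, and Klk1 had no read. Bst2 and Pacsin1 were not called, at log2 fold changes of 0.14 and -1.52 (edgeR adjusted p = 0.479 and 0.351). Most of the sum was Tcf4, Irf8 and Bst2, with wt means of 51.6, 30.2 and 25.2 CPM. Tcf4 and Irf8 are also on the list of lymphoid specification. Siglech had 0, 18 and 4 reads in wt and 0 in each deficient library. The 7 mature B cell markers in the files summed to 34.5 to 115 CPM in wt and 11.2 to 17.7 CPM in deficient libraries. Nearly all of this was Ptprc, which is shared by most blood cells, and the other 6 summed to 0.324 to 1.80 CPM in wt and 0.109 to 0.214 CPM in deficient libraries. Only Ptprc was tested, and it fell by 2.10 on the log2 scale, whereas Ms4a1, which marks B cells, had no read in any library. Of 16 genes of the T cell receptor complex and its signalling, 9 were tested and Cd4 alone was called, with a log2 fold change of -3.70, at a summed level of 15.4 to 48.5 CPM in wt and 14.7 to 17.5 CPM in deficient libraries. Cd8a had no read, and Lcp2, Lat and Lck, with the most reads of those not called, differed by -1.37, 0.45 and -0.74.

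Neutrophil and monocyte precursor markers summed to 599, 8219 and 1524 CPM in wt replicates 1 to 3 and 247 to 826 CPM in deficient libraries, with Csf1r called among 8 tested. Macrophage markers (2 of 6 called, C1qa and C1qc) summed to 7.71 to 27.0 CPM in wt and 1.29 to 4.74 CPM in deficient libraries. Hepatocyte markers (2 of 8, Ttr and Trf) summed to 118 to 248 and 21.9 to 75.5 CPM, and endothelial markers (1 of 5, Pecam1) to 23.8 to 53.5 and 11.3 to 14.1 CPM. Most of the endothelial sum in wt was Pecam1, with a mean of 25.1 CPM. Cdh5 and Kdr overlapped between the groups, whereas Tek did not. The summed levels of erythroid markers overlapped, at 1458 to 1640 and 1278 to 1941 CPM, as did those of megakaryocyte markers at 77.1 to 131 and 64.9 to 87.7 CPM and mast cell and basophil markers (0 of 5 tested) at 20.9 to 90.1 and 12.95 to 45.4 CPM. All calls on the markers named here were towards lower levels in deficient cells, and the part of these cells in the values of the antigen receptor genes was not tested.

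The genes whose profile over the 6 libraries was most like the mean of the 7 tested genes were Runx2, Ipcef1, Appl2, 1700025G04Rik and Ptafr. Their centred log2 levels differed from that mean by a root mean square of 0.121 to 0.169, the smallest among 11617 genes with a mean of at least 1 CPM. Runx2, a transcription factor, had 482, 1998 and 1019 reads in wt and 146, 296 and 303 reads in deficient libraries.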

How the data were processed

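RNA from sorted Lin- cKit+ FL cells was sequenced in 6 libraries, 1 per embryo. Per the labels and the methods of the study, libraries were made with a stranded kit and the authors aligned paired reads to GRCm38 with TopHat2 2.0.10, used HTSeq to count reads per Ensembl gene and the DEXSeq script to count them per exon bin, and deposited these counts without normalization. The strand option of the counting and the Ensembl release are not given in the sources used here. Reads not aligned uniquely (39.8% to 44.7% of a library), on no gene (5.87% to 8.37%) or on several genes (0.245% to 0.275%) were left out of library sizes. Symbols and positions came from GENCODE M21 and matched 36345 of 38293 identifiers.

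Counts were normalized by TMM, filtered by filterByExpr (minimum count 10, which kept 14396 genes) and tested with the robust quasi-likelihood test of edgeR 4.0.16 in R 4.3.3, with Benjamini-Hochberg adjustment and a threshold of 0.05. CPM are counts per normalized library size, with depths of 55952160 to 76157226 reads. Standard errors are the log2 fold change over the square root of F. For exon bins, diffSpliceDGE was run on 5 libraries, with bins averaging fewer than 10 reads removed. The procedure was tested on simulated data. Shared sequence is the share of 50-base windows of GENCODE transcripts found in another gene on either strand. DESeq2 1.42.0, limma-voom (limma 3.58.1), other scalings and filters and leaving out each library were tried.

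The genes and lists were chosen with earlier results of these data known. All 9 genes are named. From the other lists come the genes past the threshold (at most 5 by adjusted p, except that marker lists give all) and the 3 with the most reads of those not past it, from the receptor segments the 5 with the most reads, and from all genes the 5 most like the tested members. Embryos are separate samples, with n = 3 a group, but hnRNP L deficient replicates 2 and 3 share the first part of their embryo number, whose meaning the labels do not give. Some genes of these lists are not reported here.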

Additional observations from a re-analysis of the deposited data

How the results depend on the processing

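The 7 tested genes kept their direction under every alternative that gave a value for them, and none of the 9 was called higher in any. Igll1 had a value under 6 alternatives and none without wt replicate 2, and Dntt had none. Called lower were 4 genes of the 9, 5 with DESeq2 and with limma-voom (Cd79b in addition), 4 with median-of-ratios size factors, with total counts or without robust estimation, 2 without a filter on low counts, and 1 (Ighm) with a filter of 1 CPM in 3 libraries, under which 2 of the 9 were tested. Leaving out single libraries gave 0 to 5. Without wt replicate 3 or without hnRNP L deficient replicate 1, 2 or 3 no gene of the 9 was called, and over all genes 0 to 2 were called lower and 5 to 15 higher. The cause was not tested. Genes of pre-BCR and BCR signalling called lower rose from 1 to 8 with DESeq2, 7 with limma-voom, 2 with total counts, 2 without a filter, 2 with the filter of 1 CPM and 3 without robust estimation, and were 0 to 9 when single libraries were left out. Genes of the V(D)J recombination and end joining list, which leaves out Rag1 and Rag2, were 0 in the main fit. They were 1 with DESeq2, 2 with limma-voom, 2 with total counts and 0 to 1 with single libraries left out. Genes of lymphoid specification were 6, and 10 with DESeq2 and with limma-voom and 0 to 9 with single libraries left out. Over all genes the split of higher and lower calls was 1341 and 1418, and 1066 and 1751 with total counts, which moved the median log2 fold change from -0.03 to -0.10. DESeq2 called 1917 and 2213, limma-voom 2576 and 2774. For Tcrg-C1, chosen after seeing the data, the log2 fold change ran from 3.55 to 6.80, and 4 of 13 alternatives called it, with adjusted p from 0.00112 to 0.192. The exon bins that could be tested gave 0 calls under all settings (11 to 23 bins), with minimum means of 5, 10 or 20 reads and with limma-voom. No setting covered Rag1, whose bins are merged with those of B230118H07Rik, and no bin of Dntt or Igll1 was tested. No paired analysis was run because the groups share only 1 first part of the embryo number (wt replicate 1 and hnRNP L deficient replicate 1), and the labels do not say what it stands for. Deficient replicates 2 and 3 share another. Values of 36 reads or fewer, as for Cd79a, Igll1 and Blnk, are limited by counting as well as by the spread between embryos.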

Other observations

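Neighbouring genes of Tcrg-C1 on chromosome 13 were also read, chosen after the data were seen. Sfrp4, a secreted Wnt antagonist, had 322, 126 and 270 reads in wt and 586, 768 and 976 reads in hnRNP L deficient libraries (log2 fold change 1.55, SE 0.36, edgeR adjusted p = 0.0304), and Epdr1 was higher by 0.76 (SE 0.17, adjusted p = 0.0261), both with every deficient library above every wt library. Stard3nl, between them and Tcrg-C1, also had every deficient library above every wt library, but differed by 0.15 (SE 0.11, edgeR adjusted p = 0.369). How many of all genes showed this order was not counted. Amph, on the other side of Tcrg-C1, had 6, 12 and 13 reads in wt and 6, 6 and 7 reads in deficient libraries, each deficient library below each wt library in CPM, and did not pass the filter. The 3 exon bins of Tcrg-C1 each carried reads in deficient replicates 2 and 3, with 455, 148 and 191 and with 517, 153 and 215 reads.

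Vpreb3, of the same family as Vpreb1 and also chosen after its values were seen, had 0, 28 and 2 reads in wt and none in the deficient libraries, so that 1 embryo carried nearly all of its reads.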
